A study of Homo sapiens with 17 samples.

Results

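The lysosomal genes described here are 42 of the 60662 genes in a count table from Ishikawa cells, a human endometrial adenocarcinoma line used in place of endometrial epithelial cells. They are a list of known lysosome genes, taken by symbol with no threshold on a measured value, although the list was drawn up with earlier results of these data known. The list holds 3 transcription factors of the lysosome, 5 membrane proteins, 21 hydrolases and their activator proteins, 7 subunits of the V0 sector of the proton pump or its accessory proteins, and 6 subunits of the V1 sector.

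RNA was sequenced from cultures kept for 24 h under 1 of 4 labelled conditions. There were 3 control cultures in medium alone, 3 vehicle control cultures labelled Nap EtOH with 70% ethanol, 3 cultures treated with Nap and progesterone (P4), and 2 cultures with Nap only. The labels do not define Nap, and they name ethanol for the vehicle control only, so P4 and any difference in ethanol cannot be told apart in P4 treated against vehicle control. The other 6 libraries came from cultures given recombinant human PSAT1 with or without P4, but their titles and column names contradict each other, and they entered no comparison. All cultures were of 1 cancer-derived line, and replicates are biological replicates by their titles.

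Lysosomes are acidic organelles in which hydrolases break down proteins, lipids, glycans and nucleic acids. TFEB, TFE3 and MITF bind a DNA motif found near many lysosomal genes and raise their transcription once they enter the nucleus, and the kinase mTORC1 holds them in the cytoplasm when nutrients are plentiful. The V-ATPase pumps protons into the lysosome: the V1 sector splits ATP in the cytoplasm and turns the V0 sector, which carries protons across the membrane. In the endometrium, P4 takes the glandular epithelium into its secretory phase.

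Library totals were between 4999521 reads (vehicle control replicate 1) and 19704493 reads, and 3 reads corresponded to 0.152 to 0.600 CPM (reads of the gene per 1000000 reads of the library). Levels are given as CPM scaled by trimmed mean of M-values (TMM). All 6 epithelial markers had more than 3 reads in every library, while the leukocyte markers, of which CD163 and TYROBP had no read in any library, summed to at most 1.04 CPM. The summed level of the epithelial markers was 961 to 1099.5 CPM in P4 treated cultures, 1255 to 1268 CPM in vehicle control cultures, 1212 to 1452 CPM in control cultures and 1153 to 1317 CPM in Nap only cultures. It thus moved with P4, and its part in the results was not tested. The stromal markers, of which 2 of 5 were read above 3 counts in every library, summed to 65.6 to 75.2 CPM in P4 treated, 68.8 to 91.5 CPM in vehicle control, 91.1 to 157 CPM in control and 88.1 to 146 CPM in Nap only cultures. The stromal sums of P4 treated cultures thus lay below those of both the control and the Nap only cultures, and their part in the results was not tested either.

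Stretches of promoter are shown because the list includes the factors and many of their known targets. The RefSeq promoter windows on GRCh38.p14, which run from 250 bases before to 50 after a start site, were matched for 31 of the 42 genes. The letters CACGTG, the core of the motif that the factors recognise, were present in 10 of these 31 genes, against 8.77% of the 27305 genes with a window. The longer form CACGTGA, or TCACGTG on the other strand, which contains CACGTG, was found in 9 of 31 (29.03%) against 4.49% of all genes. The related TCATGTG, or CACATGA on the other strand, was found in 7 of 31 (22.6%) against 3.59%. A match of letters is a description of the window and not a bound site.

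Up to 6 genes with the longer form are shown, those with the largest change under P4, 5' to 3' on the strand of the gene and with capitals at each CACGTGA or TCACGTG. NEU1, the lysosomal sialidase, is shown at chr6:31862922-31862968 (minus strand), ATP6V0D1, a V0 subunit, at chr16:67481190-67481237 (minus strand), and GAA, the acid alpha-glucosidase, at chr17:80101484-80101576 (plus strand). LAMP1, a major glycoprotein of the lysosomal membrane, is shown at chr13:113297026-113297237 (plus strand), CTSD, the aspartic protease cathepsin D, at chr11:1763948-1763994 (minus strand), and CTSF, the cysteine protease cathepsin F, at chr11:66568703-66568749 (minus strand).
NEU1: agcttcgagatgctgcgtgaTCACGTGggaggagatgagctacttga
ATP6V0D1: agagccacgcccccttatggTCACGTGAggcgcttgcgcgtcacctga
GAA: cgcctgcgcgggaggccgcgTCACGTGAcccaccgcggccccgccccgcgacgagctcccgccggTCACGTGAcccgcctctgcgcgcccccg
LAMP1: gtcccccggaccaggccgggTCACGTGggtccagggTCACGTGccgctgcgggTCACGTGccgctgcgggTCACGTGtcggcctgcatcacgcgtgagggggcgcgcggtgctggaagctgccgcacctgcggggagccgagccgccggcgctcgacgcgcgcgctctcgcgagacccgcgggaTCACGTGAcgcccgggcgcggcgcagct
CTSD: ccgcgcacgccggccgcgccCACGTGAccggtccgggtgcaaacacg
CTSF: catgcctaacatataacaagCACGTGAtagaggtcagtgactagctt
The windows of LAMP1, GAA and CTSF held 5, 2 and 2 copies of CACGTG before the start, and the other 3 held 1 each. The genes of these windows did not move one way under P4: NEU1, GAA, LAMP1 and CTSD were higher, ATP6V0D1 was lower, and CTSF did not pass the test. The remaining genes with the longer form, MCOLN1, CTSA and ATP6V0B, did not pass it either.

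The first question was how the lysosomal genes differed between P4 treated and vehicle control cultures. All 3 factors, 3 of 5 membrane proteins and 10 of 21 hydrolases and activator proteins were higher with P4, while in the proton pump 3 V0 subunits and 1 V1 subunit were lower and 3 V1 subunits and 2 accessory proteins were higher. In all, 41 of the 42 genes were read well enough to be tested, and 28 of them differed at an adjusted p under 0.05 by edgeR (quasi-likelihood F-test, Benjamini-Hochberg adjusted over 16540 genes). Over all genes tested, 53.0% differed. There were 21 lysosomal genes higher, against 26.6% of all genes, and 7 lower, against 26.5% of all genes, while 13 did not pass. Their median log2 fold change was 0.18, and that of all genes tested was -0.01. MITF alone differed by more than 1 log2 unit, as did 12.4% of all genes. For 33 of the 41 genes the P4 treated and vehicle control cultures did not overlap, 23 of them higher and 10 lower, while 60.4% of all genes did not overlap. With upper-quartile scaling the split was 17 higher and 10 lower. Over all 16540 genes it was then 3603 higher and 5244 lower, in place of 4397 and 4377. In bulk RNA, fewer cells that express a gene and less RNA per cell cannot be told apart.

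**Figure D1:**
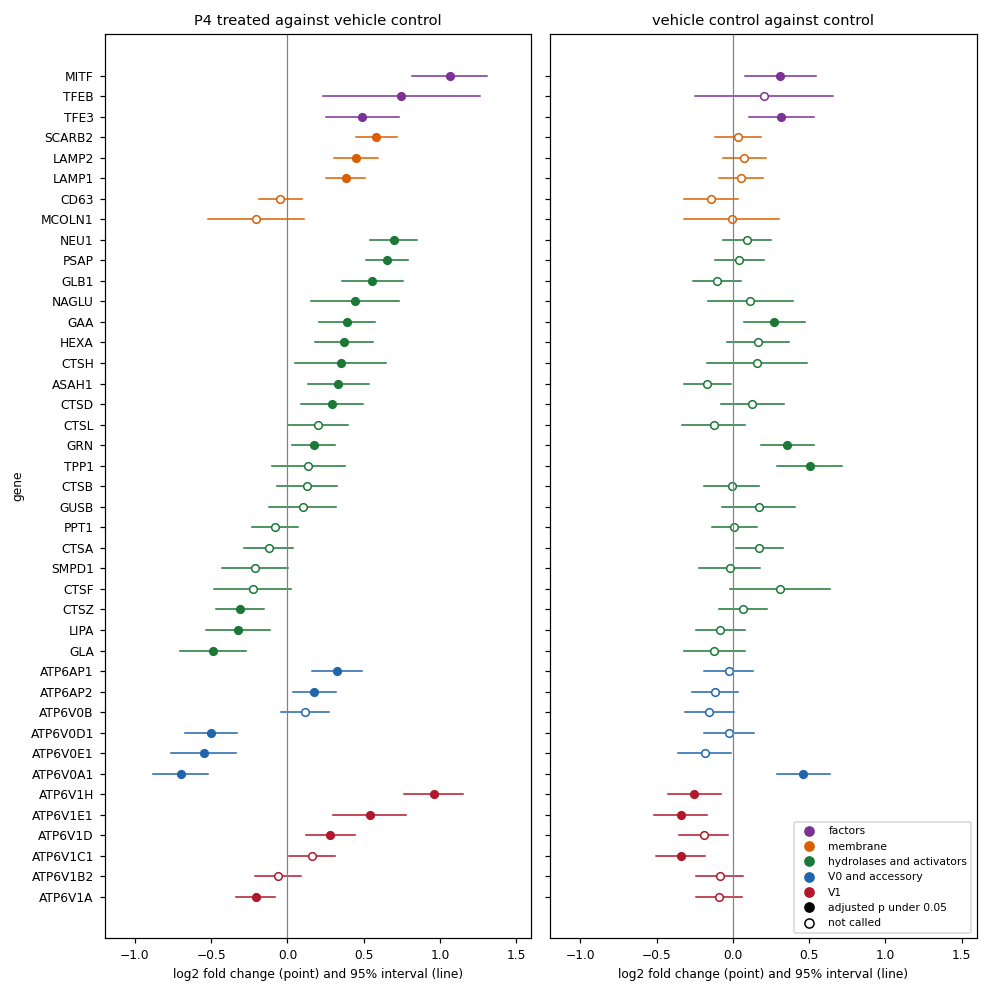
Each row is 1 of the 41 tested lysosomal genes, coloured by role, with its log2 fold change (point) and 95% interval (line) in P4 treated against vehicle control (left) and vehicle control against control (right). Filled points have an adjusted p under 0.05, which holds for 28 genes on the left and 9 on the right, and the V0 subunits ATP6V0A1, ATP6V0D1 and ATP6V0E1 lie to the left of 0 on the left side.

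The 3 transcription factors were higher with P4. MITF (chr3:69739435-69968337 on GRCh38) was read at 37.3, 49.0 and 46.2 CPM in the P4 treated cultures and at 19.2, 21.5 and 22.3 CPM in the vehicle controls. Control cultures held 15.3, 16.6 and 19.4 CPM and Nap only cultures 16.1 and 15.4 CPM. Every P4 treated culture was thus above all 8 others, and the log2 fold change against vehicle control was 1.06 (SE 0.11, adjusted p = 8.8e-06 in edgeR's test), a ratio of 2.09.

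TFE3 (chrX:49028726-49043486), the X-linked relative of TFEB, was read at 31.3, 40.0 and 35.3 CPM with P4 and at 25.9, 22.8 and 27.6 CPM in the vehicle controls. The groups did not overlap, and the log2 fold change was 0.49 (SE 0.11, adjusted p = 0.00252). Its level in control cultures, 19.4 to 21.0 CPM, was below that of every vehicle control. TFEB (chr6:41683978-41736259), for which the lysosomal programme is best known, was the least abundant of the 3, also per length, with 4.40, 7.50 and 5.27 CPM under P4 and 4.23, 2.82 and 3.64 CPM in the vehicle controls. The lowest P4 treated culture lay just above the highest vehicle control, and the log2 fold change of 0.75 (SE 0.24, adjusted p = 0.0181) had a 95% interval from 0.23 to 1.26. TFEB no longer passed the test without vehicle control replicate 2 (adjusted p = 0.111) or without P4 treated replicate 2 (adjusted p = 0.0629).

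Among the membrane proteins, SCARB2, LAMP2 and LAMP1 were higher with P4. SCARB2 (chr4:76158733-76234536), the receptor that carries beta-glucocerebrosidase to the lysosome, was read at 259, 246 and 244 CPM with P4 and at 165, 164 and 173 CPM in the vehicle controls, a log2 fold change of 0.58 (SE 0.06, adjusted p = 8.4e-06). LAMP2 (chrX:120427827-120469365), which with LAMP1 makes up much of the protein of the lysosomal membrane, stood at 221, 195 and 205 CPM against 152, 152 and 153 CPM (log2 fold change 0.45, SE 0.07, adjusted p = 0.00012). LAMP1 (chr13:113297241-113323672) stood at 262, 269.97 and 277 CPM against 211, 204 and 209 CPM (log2 fold change 0.38, SE 0.06, adjusted p = 0.00016). In all 3 genes the P4 treated cultures were above each of the 8 cultures without P4. CD63, a tetraspanin of lysosomes and exosomes and the membrane protein with the highest level per length, was read at 181, 173 and 176 CPM with P4 and at 173, 181 and 193 CPM in the vehicle controls. The groups of CD63 overlapped, and the interval of its log2 fold change was -0.19 to 0.09 (adjusted p = 0.571). The calcium channel MCOLN1 was between 6.63 and 7.93 CPM with P4 and between 8.01 and 9.23 CPM in the vehicle controls, with an interval of -0.52 to 0.11 (adjusted p = 0.249).

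**Figure D2:**
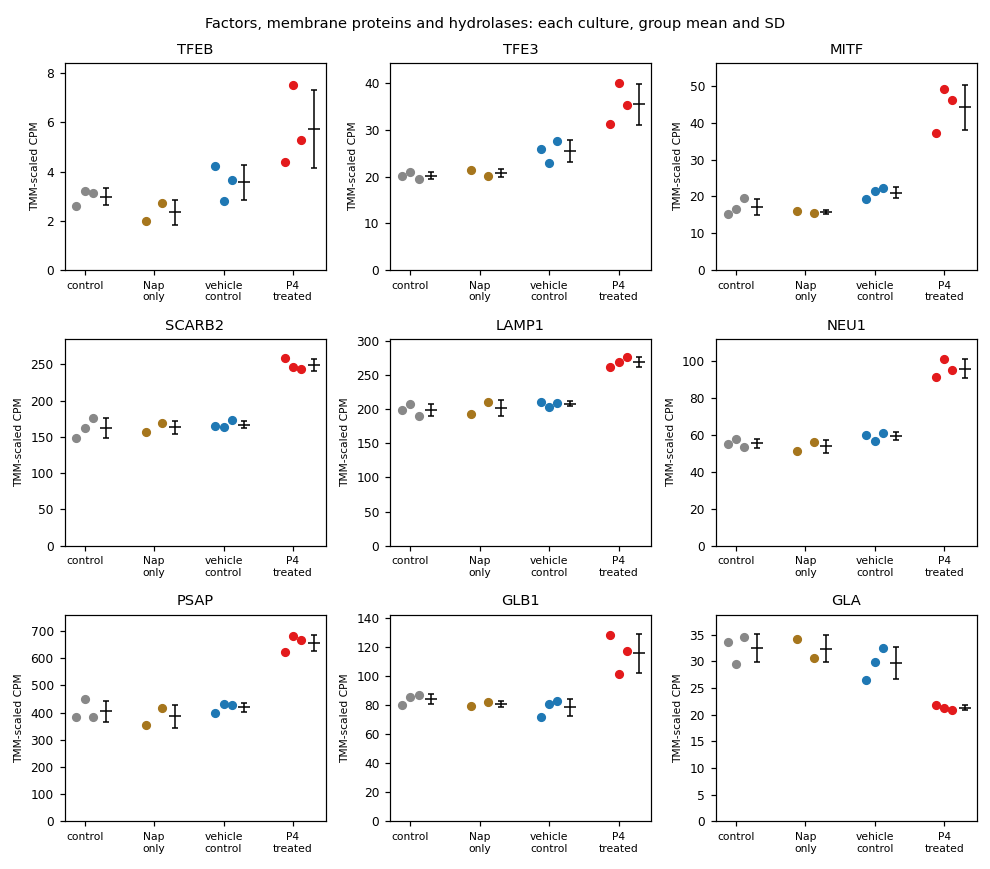
TMM-scaled CPM (linear axes from 0) of 9 factors, membrane proteins and hydrolases in each culture (points, 1 per culture) of the 4 labelled groups, with the group mean and SD beside them (bars). MITF, SCARB2, LAMP1, NEU1, PSAP and GLB1 lie higher in all 3 P4 treated cultures than in all 8 other cultures, and GLA lies lower.

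Of the 21 hydrolases and activator proteins, 10 were higher with P4, 3 were lower and 8 did not pass the test, and their median log2 fold change was 0.17. NEU1 (chr6:31857659-31862906) changed the most. It was read at 91.3, 101 and 95.2 CPM in P4 treated cultures and at 60.2, 56.9 and 61.3 CPM in the vehicle controls, a log2 fold change of 0.70 (SE 0.07, adjusted p = 6.8e-06). PSAP (chr10:71816298-71851375) encodes prosaposin, the precursor of the saposins that help hydrolases reach their sphingolipid substrates, and had the highest level per length of these genes. Its values were 623, 681 and 666 CPM with P4 and 398, 432 and 427 CPM in the vehicle controls (log2 fold change 0.65, SE 0.06, adjusted p = 4e-06). GLB1 (chr3:32996608-33097230), the lysosomal beta-galactosidase, stood at 128, 102 and 117 CPM against 71.5, 80.8 and 82.9 CPM (log2 fold change 0.56, SE 0.09, adjusted p = 0.00028). In these 3 genes no P4 treated culture overlapped any culture without P4.

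The lower hydrolases were GLA, LIPA and CTSZ. GLA (chrX:101397803-101408012), alpha-galactosidase A, was read at 21.7, 21.3 and 20.8 CPM with P4 and at 26.5, 29.8 and 32.5 CPM in the vehicle controls, a log2 fold change of -0.49 (SE 0.10, adjusted p = 0.00119). LIPA (chr10:89213569-89414557), the acid lipase that splits cholesteryl esters and triglycerides, stood at 49.5, 38.2 and 43.2 CPM against 52.7, 54.6 and 56.7 CPM (log2 fold change -0.33, SE 0.10, adjusted p = 0.0125). CTSZ (chr20:58995185-59007247), a carboxypeptidase of the cathepsin family, stood at 62.1, 57.9 and 58.3 CPM against 69.8, 76.7 and 74.6 CPM (log2 fold change -0.31, SE 0.07, adjusted p = 0.00329). The groups did not overlap in any of the 3, but LIPA did not pass the test without vehicle control replicate 3 or without P4 treated replicate 3, when its adjusted p reached 0.0616.

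The other 7 higher genes among the hydrolases and activator proteins had log2 fold changes from 0.17 to 0.44. They were the glycosidases NAGLU (0.44), GAA (0.39) and HEXA (0.37), the cathepsins CTSH (0.35) and CTSD (0.29), the acid ceramidase ASAH1 (0.33) and progranulin GRN (0.17). CTSH (adjusted p = 0.0493) and GRN (adjusted p = 0.0396) were near the threshold. CTSH lost its call in 9 of 13 alternative settings, with an adjusted p of up to 0.207, and GRN in 8 of 13, with an adjusted p of up to 0.290, and DESeq2 was among these settings for both. NAGLU and CTSD each missed the threshold when 1 culture was left out, with adjusted p up to 0.0906 for NAGLU and up to 0.120 for CTSD. CTSD also missed it with upper-quartile scaling (adjusted p = 0.0828). Of the exon bases of CTSD, 41.7% lie in another gene on the same strand in GENCODE release 29, and that gene held 1 to 13 reads in any library while CTSD held 167 to 631. The 8 hydrolases that did not pass had log2 fold changes between -0.23 and 0.20. They were CTSL, the tripeptidyl peptidase TPP1, CTSB, the beta-glucuronidase GUSB, the palmitoyl thioesterase PPT1, CTSA, the acid sphingomyelinase SMPD1 and CTSF. CTSL, CTSA and SMPD1 passed without P4 treated replicate 1, and CTSB without P4 treated replicate 2, with their signs kept. CTSA, SMPD1 and CTSF also passed, as lower, with upper-quartile scaling.

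The proton pump genes moved in both directions. Among the 6 tested V0 genes and accessory proteins, ATP6V0A1, ATP6V0E1 and ATP6V0D1 were lower with P4, ATP6AP1 and ATP6AP2 were higher, and ATP6V0B did not pass the test. ATP6V0A1 (chr17:42458844-42522611), an isoform of the large subunit that carries protons with the ring, was read at 28.8, 28.5 and 30.4 CPM with P4 and at 47.1, 45.4 and 50.4 CPM in the vehicle controls, a log2 fold change of -0.70 (SE 0.08, adjusted p = 2.2e-05). The vehicle controls of this gene were also above the control cultures, at 34.2, 35.8 and 33.0 CPM, and the Nap only cultures, at 35.2 and 37.7 CPM. ATP6V0E1 (chr5:172983757-173035445), a small subunit of the membrane sector, stood at 31.7, 26.2 and 27.9 CPM with P4 and 38.2, 42.8 and 43.7 CPM in the vehicle controls (log2 fold change -0.55, SE 0.10, adjusted p = 0.00048). ATP6V0D1 (chr16:67438014-67481237), which joins the central stalk to the ring, stood at 43.5, 40.1 and 39.7 CPM against 55.4, 60.0 and 58.9 CPM (log2 fold change -0.50, SE 0.08, adjusted p = 0.00019). For these 3 genes every P4 treated culture was below each of the 8 cultures without P4.

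The accessory genes ATP6AP1 and ATP6AP2, which take part in assembling the V0 sector, were higher. ATP6AP1 (chrX:154428632-154436516) was read at 74.4, 84.9 and 84.7 CPM with P4 and at 62.7, 67.2 and 65.6 CPM in the vehicle controls, a log2 fold change of 0.32 (SE 0.08, adjusted p = 0.00329). ATP6AP2 (chrX:40579372-40606848) stood at 115, 109 and 109.6 CPM against 98.0, 102 and 95.9 CPM (log2 fold change 0.18, SE 0.07, adjusted p = 0.0368). The call of ATP6AP2 was lost with DESeq2 and whenever any 1 vehicle control was left out. ATP6V0B, a subunit of the proton-carrying ring, had an interval of -0.04 to 0.27 (adjusted p = 0.201). ATP6V0C, the main subunit of that ring, held 1 to 9 reads in any library and was not tested. In GENCODE release 29, 72.1% of its exon bases also belong to another gene on the same strand, which held 0 reads in all 17 libraries, and the count of ATP6V0C is therefore uncertain.

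Of the 6 V1 genes, ATP6V1H, ATP6V1E1 and ATP6V1D were higher with P4, ATP6V1A was lower, and ATP6V1C1 and ATP6V1B2 did not pass the test. ATP6V1H (chr8:53715557-53843558), a subunit that regulates the coupling of V1 to V0, was read at 62.5, 75.0 and 63.1 CPM with P4 and at 35.6, 33.3 and 35.1 CPM in the vehicle controls, a log2 fold change of 0.96 (SE 0.09, adjusted p = 3.3e-06). It was the pump gene that differed most, and all P4 treated cultures were above all 8 others. ATP6V1E1 (chr22:17592136-17628818), a subunit of the outer stalks, stood at 45.9, 60.0 and 62.0 CPM against 35.7, 40.8 and 38.8 CPM (log2 fold change 0.54, SE 0.11, adjusted p = 0.00132). ATP6V1D (chr14:67294371-67360265), of the central stalk, stood at 62.9, 66.4 and 63.6 CPM against 50.9, 51.6 and 56.2 CPM (log2 fold change 0.28, SE 0.07, adjusted p = 0.00655). ATP6V1A (chr3:113747019-113812056), the catalytic subunit and the V1 gene with the highest level per length, was lower, at 165, 158 and 164 CPM against 187, 188 and 189 CPM (log2 fold change -0.21, SE 0.06, adjusted p = 0.0105). It missed the threshold when no filter on low counts was used (adjusted p = 0.0887). ATP6V1B2, the other subunit of the catalytic head, had an interval of -0.22 to 0.09, and ATP6V1C1 of 0.01 to 0.31 with an adjusted p of 0.0711.

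**Figure D3:**
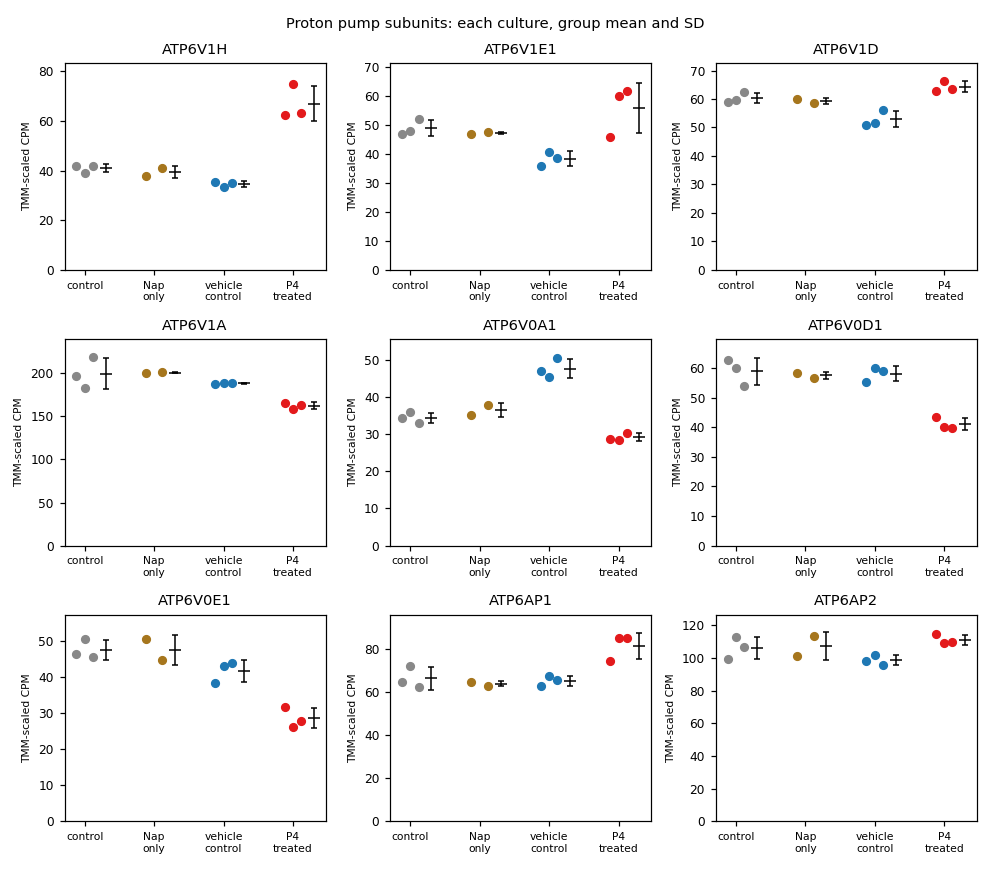
TMM-scaled CPM (linear axes from 0) of the 9 proton pump genes that differed between P4 treated and vehicle control cultures, in each culture of the 4 labelled groups (points), with the group mean and SD (bars). ATP6V1H is higher and ATP6V0D1 and ATP6V0E1 are lower in the P4 treated cultures than in any other, while ATP6V0A1 is highest and ATP6V1E1 lowest in the vehicle controls.

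The next question was how far these differences depended on which cultures served as the reference. The comparisons share the P4 treated cultures, so their values are set side by side. Against control, 25 of 41 genes differed (background 54.8%), 18 higher (background 26.8%) and 7 lower (background 28.0%). Against Nap only, 24 differed (background 49.7%), 18 higher (background 24.8%) and 6 lower (background 24.9%). All 3 factors passed the test with each reference. For MITF the log2 fold change was 1.06 against vehicle control, 1.36 against control and 1.48 against Nap only. That of TFEB was 0.75, 0.94 and 1.27 in the same order, and that of TFE3 was 0.49, 0.80 and 0.77. The values of NEU1 were 0.70, 0.78 and 0.83, those of PSAP 0.65, 0.69 and 0.76, and those of GLB1 0.56, 0.44 and 0.51, all past the threshold. SCARB2 (0.58, 0.61 and 0.60), LAMP2 (0.45, 0.51 and 0.56) and LAMP1 (0.38, 0.42 and 0.41) passed with each reference as well. Among the lower hydrolases, GLA had log2 fold changes of -0.49, -0.62 and -0.61, and LIPA of -0.33, -0.42 and -0.35. The call of LIPA against Nap only was lost without either Nap only culture and without P4 treated replicate 2 or 3. It was also lost with the replicate block (adjusted p = 0.0784). CTSZ had -0.31, -0.25 and -0.15, and did not pass the test against Nap only (adjusted p = 0.228). Its call against control was lost without control replicate 1 or 2 and without P4 treated replicate 2 or 3 (adjusted p up to 0.130). The replicate block lost the call of CTSZ against control as well (adjusted p = 0.0526). ASAH1 passed against vehicle control only, with log2 fold changes of 0.33, 0.16 and 0.17 and adjusted p of 0.214 against control and 0.234 against Nap only.

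In the proton pump, ATP6V1H was higher (log2 fold change 0.96, 0.70 and 0.75) and ATP6V0E1 (-0.55, -0.74 and -0.74), ATP6V0D1 (-0.50, -0.53 and -0.49) and ATP6V1A (-0.21, -0.31 and -0.31) were lower with all 3 references. Against Nap only, the call of ATP6V1A was lost without either Nap only culture and with the replicate block (adjusted p = 0.0530 with the block). ATP6AP1 was higher with all 3 (0.32, 0.29 and 0.34). Its call against control was lost without control replicate 1 or 3 or P4 treated replicate 3, and with upper-quartile scaling (adjusted p up to 0.0922). Its call against Nap only was lost without either Nap only culture, without P4 treated replicate 3, and with the replicate block (adjusted p = 0.0940 with the block). The difference of ATP6V0A1 shrank from -0.70 against vehicle control to -0.25 against control (SE 0.10, adjusted p = 0.0461) and -0.33 against Nap only (SE 0.10, adjusted p = 0.0207). Against control its call was lost without any 1 of the 6 cultures. It was also lost with DESeq2, with RLE scaling, without a low-count filter and with the replicate block. Against Nap only its call was lost without either Nap only culture and without P4 treated replicate 3. DESeq2 and the replicate block lost it too (adjusted p up to 0.0934 for these 2 settings). ATP6V1E1 had log2 fold changes of 0.54, 0.18 and 0.24, ATP6V1D of 0.28, 0.08 and 0.11, and ATP6AP2 of 0.18, 0.05 and 0.04, and none of these 3 passed the test against control or Nap only. With all cultures in the fits, ATP6V1H and ATP6V1A were the V1 genes that passed with every reference, and ATP6V1H also passed in every alternative setting of those 3 comparisons.

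The comparison of vehicle control with control shows the difference between the references themselves. Here 9 of 41 genes differed (background 22.6%), 6 higher in the vehicle control (background 11.9%) and 3 lower (background 10.7%). The largest was TPP1, a peptidase lost in a neuronal ceroid lipofuscinosis. It was read at 36.3, 42.8 and 52.4 CPM in the vehicle controls and at 29.9, 32.8 and 31.02 CPM in control cultures, a log2 fold change of 0.50 (SE 0.10, adjusted p = 0.0015). With P4 it stood at 46.9, 49.2 and 50.1 CPM, within the range of the vehicle controls and above the control and Nap only cultures, so that it differed from control (0.63, adjusted p = 3e-05) and from Nap only (0.82, adjusted p = 5.9e-05) but missed the threshold against vehicle control (0.14, adjusted p = 0.321). Without vehicle control replicate 3, TPP1 passed against vehicle control, with a log2 fold change of 0.29. ATP6V0A1 was next (log2 fold change 0.46, SE 0.08, adjusted p = 0.00051). GRN, the precursor of the granulins, was read at 93.2, 88.6 and 94.5 CPM in the vehicle controls and at 68.2, 80.7 and 64.9 CPM in control cultures (log2 fold change 0.36, SE 0.08, adjusted p = 0.00393). In P4 treated cultures GRN was higher than in control (log2 fold change 0.52, adjusted p = 2.1e-04) and Nap only cultures (0.57, adjusted p = 2.9e-04). Against vehicle control its value was 0.17.

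TFE3 (0.32), MITF (0.31) and GAA (0.27) were also higher in the vehicle control than in control cultures, with adjusted p from 0.0284 to 0.0477, and none of these calls was made with DESeq2. The 3 lower genes were V1 subunits, ATP6V1C1 (-0.34), ATP6V1E1 (-0.34) and ATP6V1H (-0.25). The call of ATP6V1H was lost in 7 of 13 alternative settings, with DESeq2, with all 4 groups in 1 fit, and without control replicate 1 or 3 or any 1 vehicle control (adjusted p up to 0.176). All 6 V1 genes had a value below 0 in this comparison, from -0.34 to -0.09, while only these 3 passed the test. The higher level of ATP6V1E1 in P4 treated than in vehicle control cultures thus stood beside a vehicle control level, 38.5 CPM ± 2.56 (SD, n = 3), below that of control cultures, 49.0 CPM ± 2.71 (SD, n = 3).

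**Figure D4:**
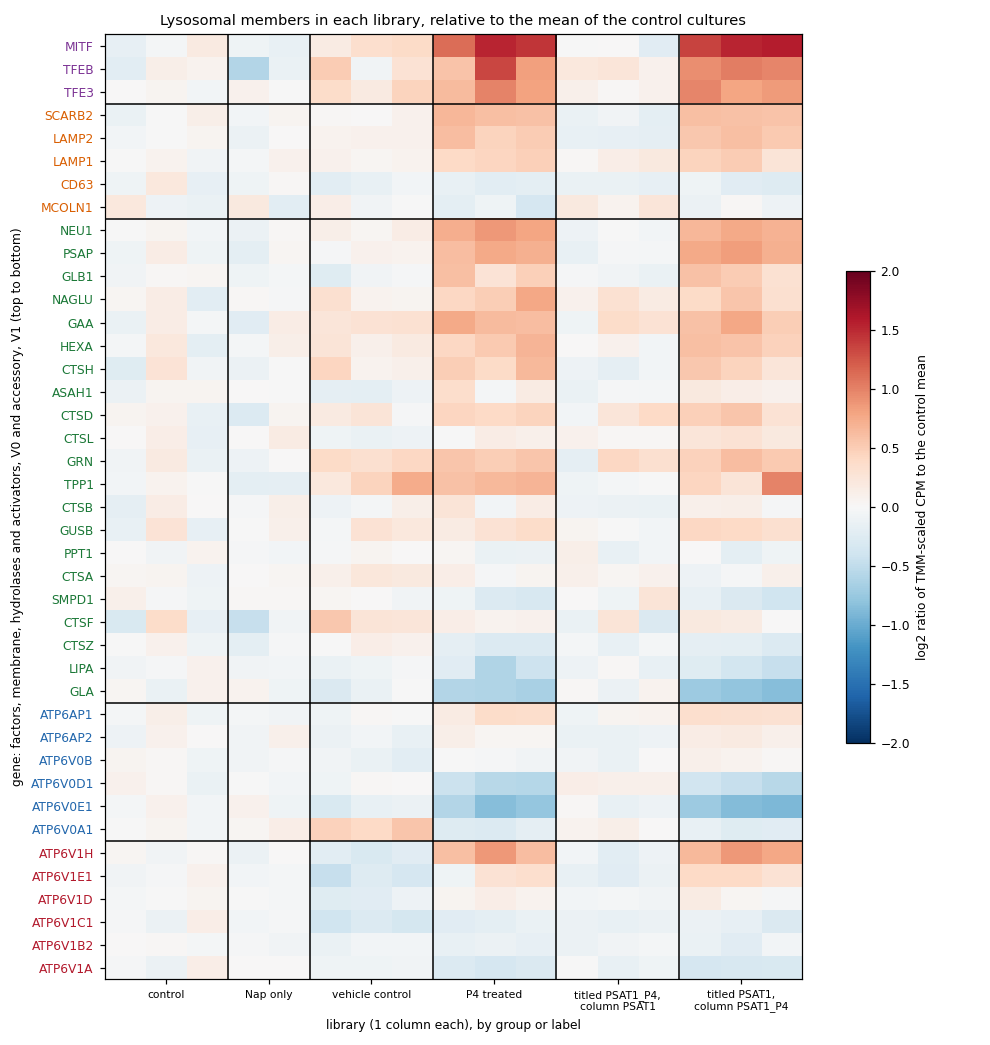
The 41 tested lysosomal genes (rows, grouped by role) in all 17 libraries (columns), coloured by the log2 ratio of TMM-scaled CPM to the mean of the control cultures. The P4 treated columns are red for the factors, LAMP1, LAMP2, SCARB2, NEU1 and PSAP and blue for ATP6V0D1, ATP6V0E1 and GLA, and the 6 libraries at the right have contradictory labels and no group.

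A further 93 genes of the lysosome were listed from general knowledge: other hydrolases, membrane proteins, pump subunits, sorting genes and the nutrient-sensing genes that control TFEB. Of these, 84 were tested in P4 treated against vehicle control and 53 (63.1%) differed, 30 higher and 23 lower, with a median log2 fold change of 0.06, where 53.0% of all genes differed, 26.6% higher and 26.5% lower. By role, of 33 further hydrolases, 7 were higher and 13 lower, with a median of -0.15, and of 20 further membrane proteins 9 were higher and 3 lower, with a median of 0.20. Of the 7 further pump genes 3 were higher and 1 was lower, and of the 6 sorting genes 2 were higher and 2 lower. Of 18 genes on the nutrient-sensing side, 9 were higher and 4 lower. The share that differed was 60.6% of these hydrolases, 60.0% of the membrane proteins, 57.1% of the pump genes, 66.7% of the sorting genes and 72.2% of the nutrient-sensing genes, and no difference between roles was tested.

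LAMP3, a relative of LAMP1 with a narrower tissue range, had the largest change of all lysosomal genes examined. It was read at 55.2, 59.9 and 62.1 CPM with P4 and at 5.77, 4.37 and 2.59 CPM in the vehicle controls, and at 2.91 to 4.82 CPM in the control and Nap only cultures. The log2 fold change was 3.91 (SE 0.17, adjusted p = 6.8e-09) against vehicle control, 3.68 against control and 4.26 against Nap only. RRAGD, a Rag GTPase that recruits TFEB and mTORC1 to the lysosome, stood at 131, 133 and 141 CPM against 57.7, 51.3 and 56.6 CPM (log2 fold change 1.30, SE 0.07, adjusted p = 4.9e-08). FNIP1, the partner of folliculin in the complex that acts on RRAGC and RRAGD, stood at 120.2, 154 and 133 CPM against 53.8, 55.4 and 58.3 CPM (log2 fold change 1.28, SE 0.09, adjusted p = 3.2e-07). The higher genes of the nutrient-sensing side were RRAGD, FNIP1, FLCN (0.90), RRAGB (0.88), RRAGC (0.81), TSC1 (0.64), MLST8 (0.51), RHEB (0.50) and FNIP2 (0.34). The lower ones were LAMTOR2 (-0.42), LAMTOR4 (-0.39), RRAGA (-0.32) and RPTOR (-0.30), so that RRAGA was lower while its paralog RRAGB was higher.

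The lowest further genes were CTSK, GM2A and PLBD2. GM2A, the activator protein that presents the ganglioside GM2 to hexosaminidase A, was read at 37.5, 24.0 and 32.7 CPM with P4 and at 53.0, 56.7 and 56.5 CPM in the vehicle controls (log2 fold change -0.82, SE 0.13, adjusted p = 0.0002), and had values of -0.86 against control and -0.90 against Nap only. The protease cathepsin K, CTSK, stood at 2.58, 3.58 and 2.11 CPM against 4.23, 4.97 and 5.17 CPM (log2 fold change -0.82, SE 0.22, adjusted p = 0.0079), and did not pass the test against control (-0.35) or Nap only (-0.27). PLBD2 turned its direction with the reference. It was read at 12.5, 21.5 and 16.2 CPM with P4, at 22.5, 28.6 and 31.6 CPM in the vehicle controls and at 12.8, 11.7 and 11.0 CPM in control cultures. Its log2 fold change was -0.74 (SE 0.17, adjusted p = 0.00324) against vehicle control and 0.49 (SE 0.16, adjusted p = 0.0163) against control, and the vehicle control was above control by 1.24 (SE 0.12, adjusted p = 1.8e-07). Among the genes that send hydrolases to the lysosome, IGF2R, the large mannose 6-phosphate receptor, was higher (log2 fold change 0.60) and GNPTAB, which builds the mannose 6-phosphate tag, was lower (-0.68). These 2 sorting genes were named after their values were seen.

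**Figure D5:**
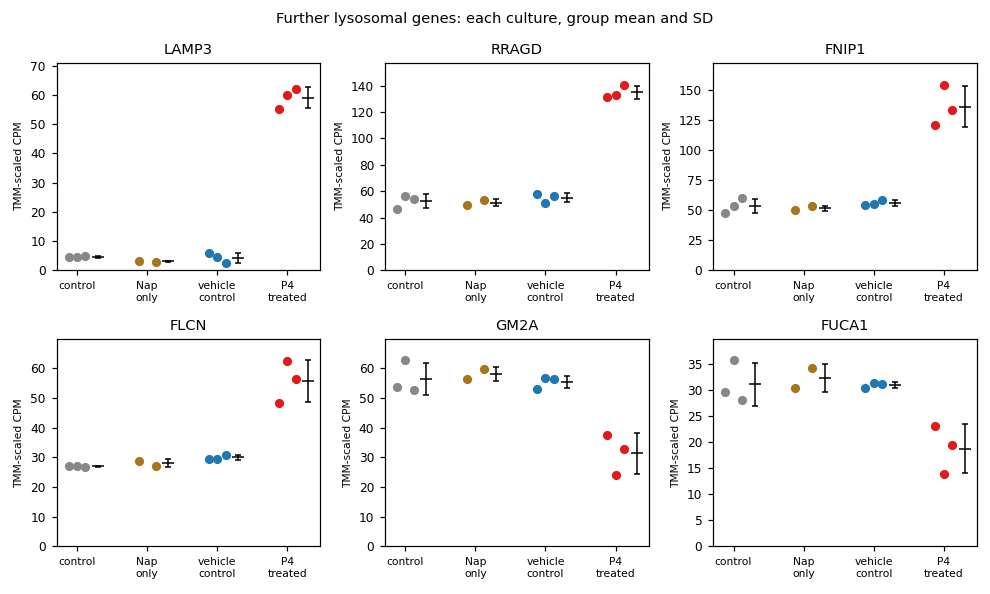
TMM-scaled CPM (linear axes from 0) of 6 further lysosomal genes in each culture of the 4 labelled groups (points), with the group mean and SD (bars). LAMP3, RRAGD, FNIP1 and FLCN are higher and GM2A and FUCA1 lower in all 3 P4 treated cultures than in the other 8.

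Levels of different genes were compared per kilobase of exon. In vehicle control cultures PSAP had the highest level per length, 129 CPM per kilobase ± 5.55 (SD, n = 3), followed by CD63 at 69.3 ± 3.81. With the longest transcript in place of all exon bases, CD63 stood at 148 and PSAP at 146, so that their order rests on the length used. ATP6V1A (36.7 ± 0.19), LAMP1 (36.2 ± 0.63) and CTSZ (36.1 ± 1.73) lay next and within 1 SD of CTSZ from each other. With the longest transcript they stood at 41.0, 39.7 and 49.3, so that their closeness also rests on the length used. The lowest of the 42 genes was ATP6V0C, whose count is uncertain, at 0.382 ± 0.20. Among the factors, TFEB was at 0.630 ± 0.13, below MITF at 2.93 ± 0.22 and TFE3 at 5.94 ± 0.56. In P4 treated cultures the level per length was 203 ± 9.25 for PSAP and 67.0 ± 1.59 for CD63, and among the factors 1.01 ± 0.28 for TFEB, 6.15 ± 0.85 for MITF and 8.29 ± 1.02 for TFE3. The median over the 42 genes in vehicle control cultures was 10.2 CPM per kilobase.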

How the data were processed

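Total RNA of 17 cultures was sequenced as stranded single-end libraries. The authors trimmed reads with Cutadapt, kept those with a quality of at least 20 in 90% of bases, aligned them with Subread (unique alignments only) and deposited raw read counts per gene from featureCounts with GENCODE release 31. Tool versions and the strand setting are not given in the sources used here, so overlapping and antisense genes are uncertain and near-identical copies are undercounted. The P4 concentrations in the labels and in the study's text differ, and none is given here.

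Gene names, positions and exon lengths came from GENCODE release 29 (GRCh38). Of 60662 gene IDs, 43928 matched it with their version, 2054 were named from a gene name table alone, and 21 stayed unnamed. Counts were tested with edgeR 4.0.16 in R 4.3.3 (TMM, filterByExpr with a minimum count of 10, robust quasi-likelihood fit of the 2 groups compared, Benjamini-Hochberg adjustment over all genes tested, threshold 0.05). The method was tested on simulated counts. Standard errors were the log2 fold change divided by the square root of F. Levels are CPM scaled by TMM factors over all libraries computed on genes averaging 1 CPM or more. Between replicate cultures, counts differed by 1.54 to 20.6 times the sampling variance, so each was counted as 1 sample. Intervals of 95% are for the log2 fold change between groups, built from its standard error. They reflect the spread between these cultures but are not the range of their values.

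The lysosomal genes and lists were chosen with earlier results of these data known. Named with full values were the 3 factors and, in each role, the 3 highest and 3 lowest log2 fold changes among genes past the threshold plus the gene with the highest level per length, as well as the 3 largest in vehicle control against control and the 3 highest and lowest of the further genes. Alternatives were DESeq2 1.42.0, RLE and upper-quartile scaling, no low-count filter, a stricter one (10 counts in every library), 1 fit of all 4 groups, a replicate block, each culture left out, and the longest transcript as gene length. Python 3.11.15 with pandas 2.3.3, numpy 2.4.6 and matplotlib 3.10.9 was used for tables and figures.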

Additional observations from a re-analysis of the deposited data

Results flagged for a closer look

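The 6 libraries without a group were set beside the cultures without P4 because they enter no comparison. Their titles name PSAT1 or PSAT1_P4, and the column of each title PSAT1 is named PSAT1_P4 in the count table and the reverse. Of the 41 genes tested, 24, 23 and 21 lay above all 8 cultures without P4 in the libraries titled PSAT1 replicates 1, 2 and 3, and 8, 11 and 10 lay below them. In the libraries titled PSAT1_P4 replicates 1, 2 and 3 the numbers above were 2, 4 and 5, and those below 3, 4 and 4. For the 3 P4 treated cultures they were 21, 18 and 22 above and 8, 10 and 11 below. Over all 16540 genes tested, 30.5%, 31.7% and 32.0% lay above in the libraries titled PSAT1, against 58.5%, 56.1% and 51.2% of the lysosomal genes. In the libraries titled PSAT1_P4 the shares above were 6.66%, 8.11% and 9.01% of all genes and 4.88%, 9.76% and 12.2% of the lysosomal genes. In the P4 treated cultures they were 28.2%, 32.5% and 30.7% of all genes and 51.2%, 43.9% and 53.7% of the lysosomal genes. The shares below in the libraries titled PSAT1 were 31.1%, 33.0% and 33.5% of all genes and 19.5%, 26.8% and 24.4% of the lysosomal genes. In the libraries titled PSAT1_P4 they were 7.50%, 7.26% and 6.89% of all genes and 7.32%, 9.76% and 9.76% of the lysosomal genes. For the P4 treated cultures the shares below were 28.6%, 33.5% and 31.3% of all genes and 19.5%, 24.4% and 26.8% of the lysosomal genes.

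MITF was read at 43.8, 49.3 and 50.7 CPM in the libraries titled PSAT1 and at 17.1, 17.2 and 14.6 CPM in those titled PSAT1_P4. ATP6V1H was read at 64.0, 74.9 and 70.0 CPM in the former and at 39.5, 35.5 and 38.0 CPM in the latter, and ATP6V0E1 at 28.5, 26.0 and 25.4 CPM and at 48.0, 42.5 and 44.3 CPM. LAMP3 was read at 69.5, 70.1 and 68.4 CPM and at 4.03, 3.85 and 3.94 CPM. No test was made on these libraries, and which of them received P4 was not settled from their values.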

How the results depend on the processing

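None of the 41 log2 fold changes in P4 treated against vehicle control, nor those past the threshold in the other comparisons, turned its sign under any alternative run. In P4 treated against vehicle control the number of lysosomal genes past the threshold was 24 to 28 under the other settings and 22 to 32 when 1 culture was left out, and that of the further genes 47 to 53 and 41 to 57. Over all genes tested, 7474 to 9023 passed under the other settings. With 1 culture left out, between 7083 of 16711 and 9953 of 17123 genes passed. Lysosomal, further and all genes then all had their highest count without P4 treated replicate 1. Under the other settings the counts did not move together. Without a filter the lysosomal count was lowest, at 24, while 9006 of 32921 genes passed. The genes whose call was lost with DESeq2 were CTSH, GRN and ATP6AP2. The depth of vehicle control replicate 1, 4999521 reads, limits the least abundant genes.

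The counts that moved by more than 1.5 times were in the other comparisons. With upper-quartile scaling, 11 genes were lower in P4 treated than in control cultures in place of 7. Over all genes 5192 were then lower in place of 4651. In vehicle control against control, DESeq2 found 5 genes in place of 9, of which 3 were higher in place of 6. Without a filter 3 were higher. Over all genes DESeq2 found 2647 in place of 3763, with 1405 higher in place of 1976. Without a filter 1765 of all genes were higher. Leaving out 1 culture gave 5 to 12 genes and 3 to 9 higher, with 5 genes without vehicle control replicate 1 or 3 and 3 higher without control replicate 1 or vehicle control replicate 1 or 3. The same runs gave 1908 to 3995 over all genes, and 1097 to 2009 higher. In P4 treated against Nap only, the replicate block gave 3 lower genes in place of 6, and 3247 in place of 4232 over all genes. Counts from fits with 1 Nap only culture left are not given. The median level per length was 16.2 with the longest transcript in place of 10.2.

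The replicate numbers were not used as pairs in the main fits. Correlations of same-numbered P4 treated and vehicle control cultures, after their group means were removed, were -0.043 to 0.052 over 15662 genes. Their mean was 0.017, and that of other pairs was -0.008. With group means removed, the second value nearly follows from the first, so it is no separate reference in any comparison. For vehicle control and control cultures the means were 0.043 and -0.022. For P4 treated with control, and with Nap only, they were -0.074 and 0.037. Whether the numbers mark shared batches was not settled. With the replicate block, 26 lysosomal genes differed between P4 treated and vehicle control in place of 28, 23 in place of 25 against control, 18 in place of 24 against Nap only, with 3 lower in place of 6, and 9 between vehicle control and control, as without it. Over all genes the block gave, in the same order, 8934 in place of 8774, 8754 in place of 9112, 6638 in place of 8446 and 4360 in place of 3763.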
